A study of Mus musculus with 6 samples.

Results

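The genes described are 8 genes of the extrinsic death pathway and its neighbours, chosen by name from the deposited table: the death receptor Fas, its adaptor Fadd, the initiator caspases Casp8 and Casp9, the caspase-8 regulator Cflar, and the necroptosis genes Ripk1, Ripk3 and Mlkl. All 8 were found among the 13605 genes used. They were measured in 6 mRNA sequencing libraries of regulatory T cells (Tregs), the suppressive CD4 lineage defined by Foxp3, isolated from the liver of untreated mice aged 14 months. There were 3 libraries labelled Altre wild type (WT) and 3 labelled Altre knockout (KO), the gene of a long non-coding RNA found in Tregs. How the knockout was made, the strain, the sex, whether the deletion is limited to Tregs and whether each library came from a single animal are not stated in the labels. The p-values therefore reflect the spread among these libraries, part of which may be technical. The design asks what differs in ageing liver Tregs when Altre is absent.

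Death receptors such as Fas trigger apoptosis by gathering the adaptor FADD and procaspase-8 into a complex at the membrane, in which caspase-8 activates itself and then the executioner caspases. The product of Cflar, c-FLIP, resembles caspase-8 without its protease activity and sets whether that complex kills. Where caspase-8 is inactive, the kinases RIPK1 and RIPK3 can assemble and phosphorylate MLKL, which ruptures the plasma membrane in the form of death called necroptosis. Caspase-9 starts the separate mitochondrial route, on the apoptosome that APAF1 forms with cytochrome c. In T cells Fas is known for removing activated cells, and caspase-8 is also needed to keep them from necroptosis.

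Total counts ranged from 25315425 to 30870786 over the libraries. Levels are in CPM, counts scaled to one common effective library total, and are shown as mean ± SD over the 3 libraries of a genotype. The 10 Treg and CD4 T cell markers examined had counts in every library and summed to 8340 to 9840 CPM in wild type and 8460 to 10000 CPM in knockout. Macrophage and Kupffer cell markers, 12 of the 13 listed, summed to 194 to 224 CPM in wild type and 236 to 354 CPM in knockout. The mean was higher in knockout for 11 of the 12. Vsig4 and Timd4 among them were at 0 in at least 1 library, and the Kupffer cell marker Clec4f was not among the genes used. CD8 T and NK cell markers summed to 43.7 to 48.9 CPM in wild type and 62.0 to 67.3 CPM in knockout. The markers summed were Cd8b1, Klrb1c, Gzma, Prf1, Eomes and Tyrobp (6 of 9 listed), with Eomes at 0 in at least 1 library. Cd8a, Ncr1 and Klrd1 were not among the genes used. Liver endothelial markers, here only Stab2 and Pecam1 (2 of 5 listed), summed to 95.7 to 126 CPM in wild type and 139 to 158 CPM in knockout. The endothelial markers Kdr, Clec4g and Lyve1 were looked for and were not among the genes used. Whether these 2 sums come from cells apart from the macrophages was not tested. In bulk samples like these, fewer cells of a type and less RNA per cell cannot be told apart. The Altre transcript was not analysed here, so it gives no check of the labels.

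None of the 8 genes differed between the genotypes at an adjusted p of 0.05 (edgeR quasi-likelihood test, Benjamini-Hochberg over 12789 genes), where 0.0% of all genes tested were called. At an unadjusted p under 0.05 the counts were 0 of the 8 genes and 744 of all genes tested (5.82%), and DESeq2, which called 0.368% of all genes, called 0 of the 8. In 0 of the 8 genes did the 3 libraries of one genotype all lie above those of the other, against 10.3% of all genes tested. The means of 3 of the 8 were higher in knockout and those of 5 lower, and their median log2 fold change was -0.03 beside 0.00 over all genes tested. The authors' deposited table calls none of the 8 either, with 1.82% of all its genes called. Of its 247 called genes, 242 were also called by DESeq2 with the replicate number as a term, and 48 by DESeq2 with genotype alone. Over 13605 genes the deposited statistics correlated at 0.9996 with the fit that has the replicate term and at 0.9306 with the other. The deposited calls are thus best set beside the fit with the replicate term, which called 1.79% of all genes.

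The promoter windows of the 8 genes were searched for the letters of 2 interferon-linked motifs, because several genes of this pathway are known as interferon targets in mouse cells. The windows run from 250 bases before to 50 after a RefSeq start site (GRCm38.p6), and all 8 genes matched the table by symbol, with 9 windows. The core of the interferon-stimulated response element (ISRE), taken as GAAA followed by any 2 bases and GAAA again, was searched on both strands. It occurred in a window of 4.03% of the 9596 tested genes that had a window. The STAT-binding gamma-activated sequence (GAS), taken as TTC, any 3 bases and GAA, reads the same on both strands and occurred in 8.44% of these 9596 genes. Each motif matched 2 of the 8 genes. At least 1 motif matched 3 of the 8, Ripk1, Cflar and Fas, against 11.9% of the 9596 tested genes with a window. The matching windows of these 3 genes are shown with the matches in capitals, and 5 genes had none. A match describes letters and is not evidence of binding.
Ripk1 (chr13:34002624-34002923, plus strand): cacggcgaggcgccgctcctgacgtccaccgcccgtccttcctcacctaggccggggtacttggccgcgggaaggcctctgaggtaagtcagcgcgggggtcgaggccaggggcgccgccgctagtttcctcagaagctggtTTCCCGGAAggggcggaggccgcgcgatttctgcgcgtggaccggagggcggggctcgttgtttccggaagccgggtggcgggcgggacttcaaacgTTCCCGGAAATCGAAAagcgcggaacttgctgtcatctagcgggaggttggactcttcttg
Cflar (chr1:58711241-58711540, plus strand): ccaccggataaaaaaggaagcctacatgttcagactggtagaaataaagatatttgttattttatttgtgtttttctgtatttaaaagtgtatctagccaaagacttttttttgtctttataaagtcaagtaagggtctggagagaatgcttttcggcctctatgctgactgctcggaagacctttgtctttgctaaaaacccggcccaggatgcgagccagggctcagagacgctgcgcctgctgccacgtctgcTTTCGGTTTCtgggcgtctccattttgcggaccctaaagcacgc
Fas (chr19:34290409-34290708, plus strand): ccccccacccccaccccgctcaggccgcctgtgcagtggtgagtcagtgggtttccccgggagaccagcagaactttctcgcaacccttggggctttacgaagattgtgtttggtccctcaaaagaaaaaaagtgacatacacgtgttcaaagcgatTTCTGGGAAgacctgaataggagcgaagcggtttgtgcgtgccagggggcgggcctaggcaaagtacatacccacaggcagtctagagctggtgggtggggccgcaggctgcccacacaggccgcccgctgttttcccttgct
In Ripk1 one GAS match began 108 bases before the start site and a second 11 bases before it, and the second overlaps the ISRE match that begins 5 bases before it. Another window of Ripk1, at a start site further upstream, had no match. In Cflar the ISRE match is on the minus strand, 6 bases into the transcript, and in Fas the GAS match began 93 bases before the start site. None of these 3 genes was called in the edgeR comparison of the genotypes, in which 0.0% of all genes tested were called.

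Fas (chromosome 19, 34290666 to 34327772, GRCm38), the receptor that starts the pathway, measured 117, 140 and 177 CPM across the wild-type libraries, in the order of replicates 1, 2 and 3, against 123, 160 and 134 CPM across the knockout libraries in the same order. Both the lowest and the highest of the 6 values were in wild type, so the knockout range lay inside the wild-type range. The means were 145 ± 30.3 and 139 ± 18.8 CPM, a log2 fold change of -0.06 ± 0.17 (SE) with a 95% interval from -0.44 to 0.32 and an adjusted p of 0.996 (edgeR). Fadd (chromosome 7, 144577318 to 144582463), the adaptor that joins Fas to caspase-8, measured 32.6, 30.0 and 24.5 CPM across the wild-type libraries against 26.6, 32.0 and 26.8 CPM across the knockout ones. Here too the knockout libraries lay within the span of the wild-type ones. The log2 fold change of Fadd was -0.03 ± 0.19 (SE), with a 95% interval from -0.45 to 0.39. The exons of Fadd share 239 bases, 6.1% of their length, with the antisense gene Faddos on the opposite strand.

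Casp8 (chromosome 1, 58795374 to 58847503), the initiator caspase of the receptor complex, measured 290.9, 280.4 and 270.8 CPM across the wild-type libraries against 279.8, 358.8 and 295.5 CPM across the knockout ones. The wild-type values were close together, and knockout replicate 2 stood above the other libraries, while knockout replicate 1 fell between wild-type values. The means were 280.7 ± 10.1 and 311 ± 41.8 CPM, a log2 fold change of 0.15 ± 0.12 (SE) with a 95% interval from -0.12 to 0.42 and an adjusted p of 0.957 (edgeR). Its log2 fold change ran from 0.02 without knockout replicate 2 to 0.22 without knockout replicate 1. Cflar (chromosome 1, 58711508 to 58758884), which lies near Casp8 on the same strand and encodes its protease-dead relative, measured 99.8, 120.5 and 137 CPM across the wild-type libraries against 112, 112 and 124 CPM across the knockout ones. The 3 knockout values again lay between the wild-type extremes. Its log2 fold change was -0.04 ± 0.14 (SE), with a 95% interval from -0.36 to 0.28.

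**Figure D1:**
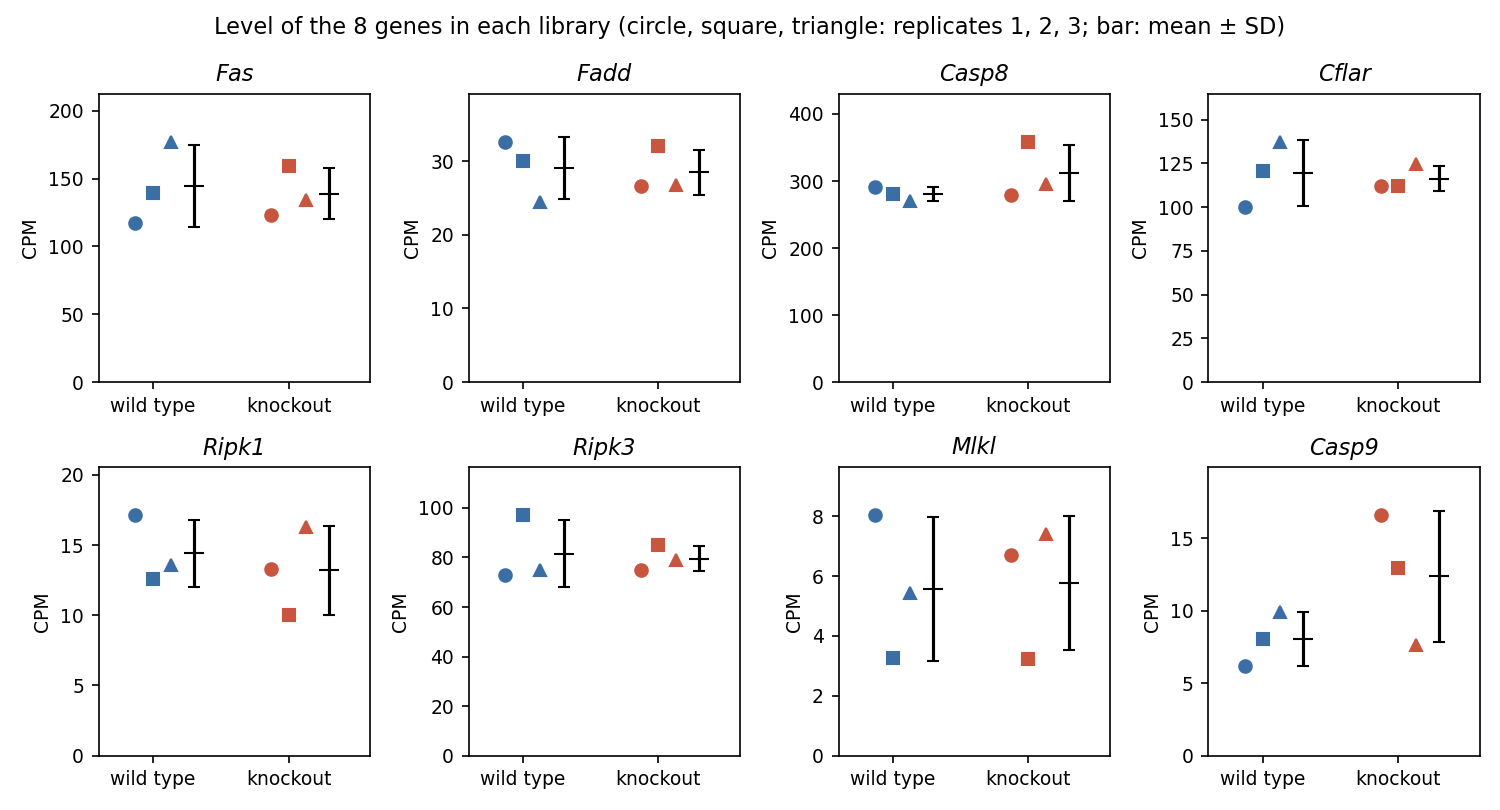
Level of each of the 8 genes in CPM (vertical axis, from 0, one scale per panel) in the 3 wild-type and 3 knockout libraries, with one point per library and a bar for the mean ± SD. The genotypes overlap in every panel; Casp9, from 6.17 to 16.6 CPM, has the widest range on a log2 scale, 1.42 units.

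Ripk1 (chromosome 13, 34002363 to 34037147), the kinase that links death receptors to both NF-kB signalling and necroptosis, measured 17.1, 12.6 and 13.6 CPM across the wild-type libraries against 13.3, 10.01 and 16.3 CPM across the knockout ones. Wild-type replicate 1 was the highest library and knockout replicate 2 the lowest. The log2 fold change was -0.13 ± 0.26 (SE), with a 95% interval from -0.70 to 0.45. The exons of Ripk1 share 2.9% of their length with Serpinb6a on the opposite strand and 511 bases, 6.1% of their length, with a processed pseudogene on its own strand, so a part of its reads could be shared.

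Ripk3 (chromosome 14, 55784995 to 55788865), the kinase that phosphorylates MLKL, measured 72.8, 97.1 and 74.8 CPM across the wild-type libraries against 74.9, 84.9 and 78.8 CPM across the knockout ones. In each genotype replicate 2 was the highest library, and the knockout values lay inside the wild-type range. Its log2 fold change was -0.04 ± 0.15 (SE), with a 95% interval from -0.38 to 0.30. Mlkl (chromosome 8, 111311797 to 111338177), the executioner of necroptosis, measured 8.04, 3.25 and 5.43 CPM across the wild-type libraries against 6.71, 3.23 and 7.41 CPM across the knockout ones. Replicate 2 of each genotype was the lowest, at less than the values of the other 4 libraries. The log2 fold change of Mlkl was 0.05 ± 0.44 (SE), with a 95% interval from -0.94 to 1.04, or 0.523 to 2.06 of the wild-type level.

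Casp9 (chromosome 4, 141793612 to 141815976), the initiator caspase of the mitochondrial route, measured 6.17, 8.08 and 9.90 CPM across the wild-type libraries against 16.6, 12.96 and 7.60 CPM across the knockout ones. Knockout replicates 1 and 2 were the 2 highest libraries, while knockout replicate 3 lay below wild-type replicates 2 and 3. The means were 8.05 ± 1.86 and 12.4 ± 4.53 CPM, and the log2 fold change of 0.62 ± 0.33 (SE) was the largest of the 8. Its 95% interval ran from -0.12 to 1.37, with an unadjusted p of 0.0926 and an adjusted p of 0.895 (edgeR). Leaving out knockout replicate 3 gave a log2 fold change of 0.88 with an unadjusted p of 0.0212 and an adjusted p of 1.0 (edgeR), and leaving out knockout replicate 1 gave 0.35. In the authors' deposited table Casp9 had a log2 fold change of 0.58, knockout over wild type, with an adjusted p of 0.754. Its exons share 94 bases, 1.8% of the exon length, with each of Cela2a and Ctrc on the opposite strand.

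**Figure D2:**
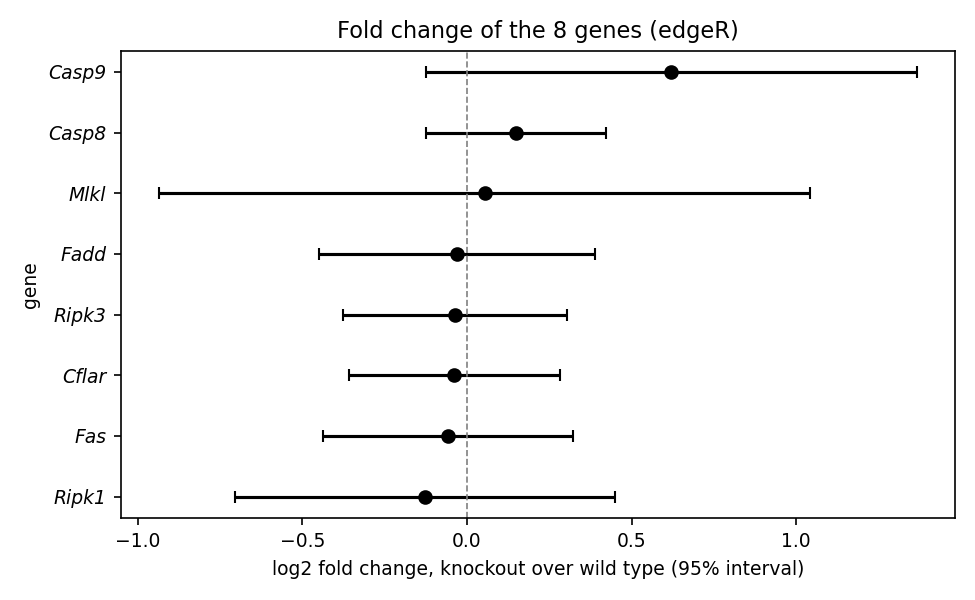
Log2 fold change, knockout over wild type, of the 8 genes with 95% intervals from the edgeR fit (horizontal axis), ordered by value. Every interval includes 0; those of Casp9 (-0.12 to 1.37) and Mlkl (-0.94 to 1.04) are the widest and that of Casp8 (-0.12 to 0.42) the narrowest.

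The precision of the measurement differed among the 8 genes. The coefficient of variation over the 6 libraries was 10.8% for Casp8, 10.9% for Cflar, 11.4% for Ripk3, 11.4% for Fadd and 16.1% for Fas. It was 18.8% for Ripk1, 36.6% for Mlkl and 38.2% for Casp9. Counting error alone would give 1.12% at the 8018 mean counts of Casp8 and 7.98% at the 157 mean counts of Mlkl, so the spread of each was above it. For Fas, Fadd, Casp8, Cflar and Ripk3 the 95% intervals lay between 0.733 and 1.34 of the wild-type level, whereas for Ripk1 the interval was 0.614 to 1.36 and for Casp9 0.918 to 2.58. Ripk1 and Mlkl shared their extremes, both being highest in wild-type replicate 1 and lowest in knockout replicate 2, the library in which Casp8 was highest. For Mlkl, wild-type replicate 2 was almost as low, at 82 counts against 81 in knockout replicate 2. The most GC-rich 100-base window of a transcript held 83% GC in Casp9, 80% in Ripk1 and 68% in Mlkl. In the other genes it held from 63% (Fas) to 75% (Casp8 and Fadd). The part of this property in the spread was not tested.

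Scaled to the length of the longest principal transcript, in CPM per kilobase, the order of the levels was Casp8, Fas, Ripk3, Cflar, Fadd, Mlkl, Casp9 and Ripk1. Casp8 averaged 114.5 CPM per kilobase over the 6 libraries and Fas 95.7, and their ranges overlapped. Ripk3 followed at 42.6, Cflar at 17.9 and Fadd at 7.37, and from Fas to Mlkl the range of each gene lay clear of that of the next. Mlkl at 2.87, Casp9 at 2.62 and Ripk1 at 2.13 overlapped with one another. Casp8 stood at percentile 92.8 of the length-scaled levels of tested genes, Fas at 91.4 and Ripk3 at 82.3, while Mlkl, Casp9 and Ripk1 stood at 31.1, 29.7 and 26.5. Within the necroptosis branch, the length-scaled level of Ripk3 lay above those of its upstream partner Ripk1 and its substrate Mlkl in every library. With the exon union of all transcripts as the length, a choice made after seeing the data, the order was the same, and Cflar went from 17.9 to 9.29 CPM per kilobase since its union is 12669 bases long against 6572 for the principal transcript.

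**Figure D3:**
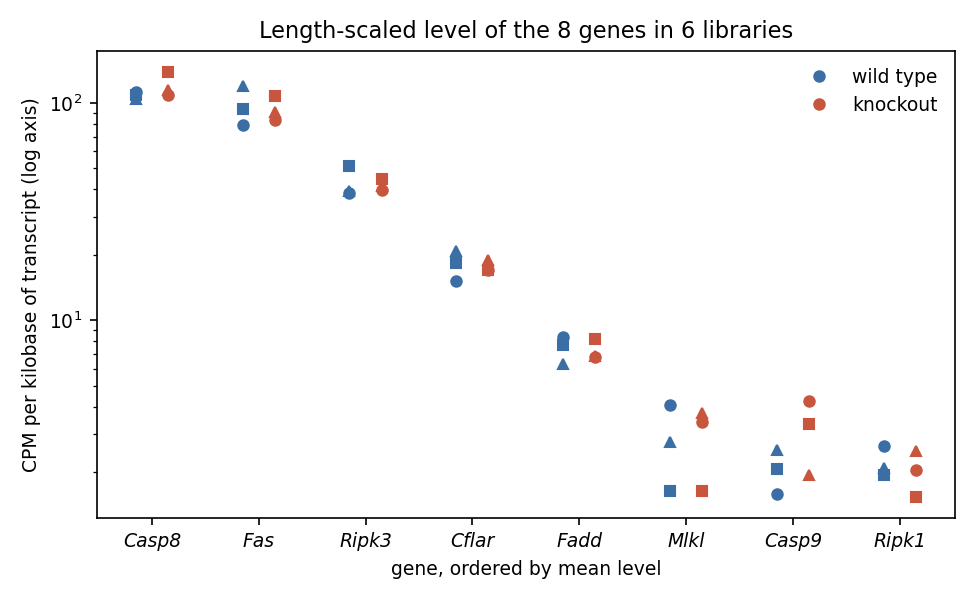
Level of the 8 genes in CPM per kilobase of the longest principal transcript (vertical log axis), one point per library, wild type left and knockout right of each gene, genes ordered by mean. Casp8 and Fas lie at the top (114.5 and 95.7 on average) and Mlkl, Casp9 and Ripk1 at the bottom (2.87, 2.62 and 2.13), with the genotypes mixed for each gene.

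Ratios within a library do not depend on how libraries are scaled, and 4 were compared between the genotypes. The log2 ratio of Cflar to Casp8, the regulator against the protease, was -1.54, -1.22 and -0.98 in wild type and -1.32, -1.68 and -1.25 in knockout. It averaged -1.25 ± 0.28 and -1.42 ± 0.23, a difference of -0.17 (exact permutation test, two-sided, p = 0.4, adjusted over the 4 ratios 0.8). Without wild-type replicate 3 that difference was -0.035, without knockout replicate 2 it was -0.038 and without wild-type replicate 1 it was -0.318. With 3 libraries against 3 the smallest p this test can give is 0.1. The ratio of Ripk3 to Casp8, necroptosis kinase against the caspase that holds it in check, was -2.0, -1.53 and -1.86 in wild type and -1.90, -2.08 and -1.91 in knockout, and differed by -0.17 (exact permutation p = 0.4, adjusted 0.8). That difference was -0.035 without wild-type replicate 2, -0.109 without knockout replicate 2 and -0.269 without wild-type replicate 1. That of Mlkl to Casp8 ran from -6.43 to -5.18 in wild type and from -6.80 to -5.32 in knockout, and was lowest in replicate 2 of each genotype. It differed by -0.08 (exact permutation p = 0.8, adjusted 1.0). That of Fas to Cflar, receptor against inhibitor, averaged 0.27 ± 0.08 in wild type and 0.25 ± 0.23 in knockout (exact permutation p = 1.0, adjusted 1.0). The libraries of the genotypes overlapped for each of the 4 ratios.

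**Figure D4:**
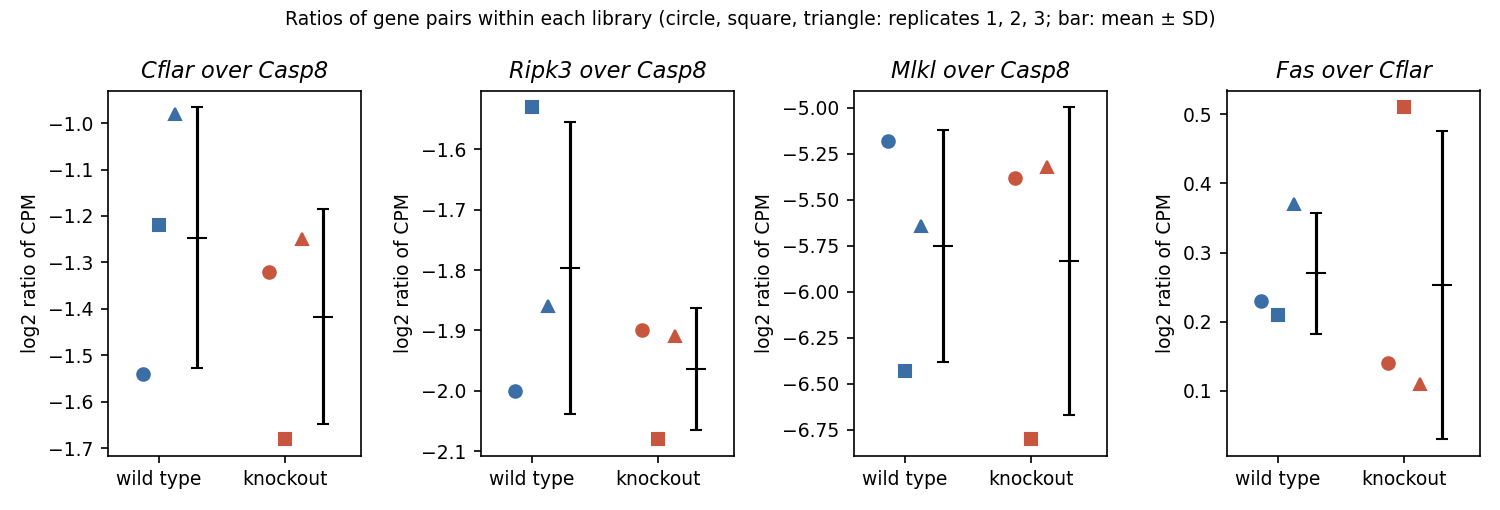
Log2 ratio of the CPM of 2 genes within each library (vertical axis, one scale per panel) for 3 wild-type and 3 knockout libraries, with mean ± SD. The genotypes overlap in each panel, as for Cflar over Casp8 at -1.25 ± 0.28 in wild type and -1.42 ± 0.23 in knockout.

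The wider pathway was read from 5 lists holding 78 genes, of which 74 were tested. None of the 74 was called (0.0% of all genes tested), and Tnfrsf21 passed the low-count filter through its knockout libraries alone. Of the other 73, 6 had an unadjusted p under 0.05 (8.22%, against 5.82% of all genes) and in 9 the genotypes did not overlap (12.3%, against 10.3%). Of the 10 death receptors and ligands, 7 had a log2 fold change above 0, the smallest of these at 0.001, and 3 had one below 0. With DESeq2 size factors in edgeR 6 were above 0, and over all genes tested 50.8% were. The median log2 fold change was 0.25, beside 0.00 over all genes, and 0 were called. Left without Tnfrsf21, a choice made after seeing the data, 6 of the other 9 were above 0 and their median was 0.23. Without knockout replicate 3 the median of the 10 was 0.076. Tnfrsf21 (death receptor 6) was near absent in wild type, at 7, 1 and 8 counts in replicates 1, 2 and 3, and had 78, 48 and 68 counts in knockout, which corresponds to 0.192 ± 0.135 and 2.39 ± 0.607 CPM. It passed the filter only where it was high, so no test of it is given. Tnfrsf1a, the main receptor for TNF, measured 24.5, 22.1 and 23.2 CPM across the wild-type libraries against 36.1, 31.4 and 27.6 CPM across the knockout ones, without overlap, a log2 fold change of 0.45 ± 0.18 (SE) with an adjusted p of 0.842 (edgeR). Tnfrsf25 (death receptor 3) had 66.8 ± 9.66 and 80.6 ± 13.6 CPM. Macrophages also express TNF receptors. Markers of macrophages and Kupffer cells summed to 224, 194 and 204 CPM in wild-type replicates 1, 2 and 3. In knockout replicates 1, 2 and 3 they summed to 236, 350 and 354 CPM. In wild type Tnfrsf1a and that sum put the libraries in the same order, and in knockout in the reverse order. The summed markers of CD8 T and NK cells and of liver endothelial cells also lay higher in knockout. Those of B cells did not, at 58.2 to 83.9 CPM in wild type and 65.6 to 68.4 CPM in knockout. The part of any of these cells in the death receptor values was not tested.

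Among 25 genes of the receptor complex and its ubiquitin checkpoints, which decide between NF-kB signalling and death after TNF binding, 13 were higher on average in knockout and 12 lower, the median log2 fold change was 0.03 and 0 were called. Rbck1 (HOIL-1), a subunit of the linear ubiquitin ligase, averaged 142 ± 14.1 CPM in the wild type against 178 ± 27.5 CPM, with an unadjusted p of 0.0475 and an adjusted p of 0.849 (edgeR). Chuk, the kinase IKK alpha, measured 18.5, 29.5 and 19.8 CPM across the wild-type libraries against 13.3, 18.1 and 17.2 CPM across the knockout ones, with no overlap and an adjusted p of 0.890 (edgeR). Traf5, an adaptor of TNF receptors, had 87.3 ± 5.54 and 107 ± 21.4 CPM.

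The 16 genes of the apoptosome and the executioner caspases divided evenly, 8 higher and 8 lower in knockout; their median log2 fold change was 0.02 and 0 were called. Dffa, the inhibitor of the caspase-activated nuclease, had 31.5 ± 6.502 and 36.2 ± 2.84 CPM.

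Of the 14 necroptosis genes tested, 6 were higher on average in knockout and 8 lower, the median log2 fold change was -0.03 and 0 were called. The lowest fold changes of this list were those of Ripk2 and Peli1. Peli1, a ubiquitin ligase that has RIPK1 and RIPK3 among its substrates, measured 834, 617 and 311 CPM across the wild-type libraries against 427, 169 and 168 CPM across the knockout ones. Its levels spread widely within each genotype and overlapped between them, and its log2 fold change of -1.21 ± 0.41 (SE) had an unadjusted p of 0.0144 and an adjusted p of 0.842 (edgeR). Ripk2, a kinase of NOD receptor signalling, measured 28.9, 12.5 and 7.31 CPM across the wild-type libraries against 11.6, 3.67 and 4.70 CPM across the knockout ones, with an adjusted p of 0.845 (edgeR). Both were highest in wild-type replicate 1, and in both the most GC-rich 100-base window of a transcript was above the median of 74% over genes with a value (83% for Peli1 and 81% for Ripk2), a property whose part in these values was not tested. Ticam1 (TRIF), the adaptor through which Toll-like receptor 3 reaches RIPK1 and RIPK3, had 6.77 ± 2.16 and 10.8 ± 1.199 CPM with no overlap and an adjusted p of 0.849 (edgeR).

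**Figure D5:**
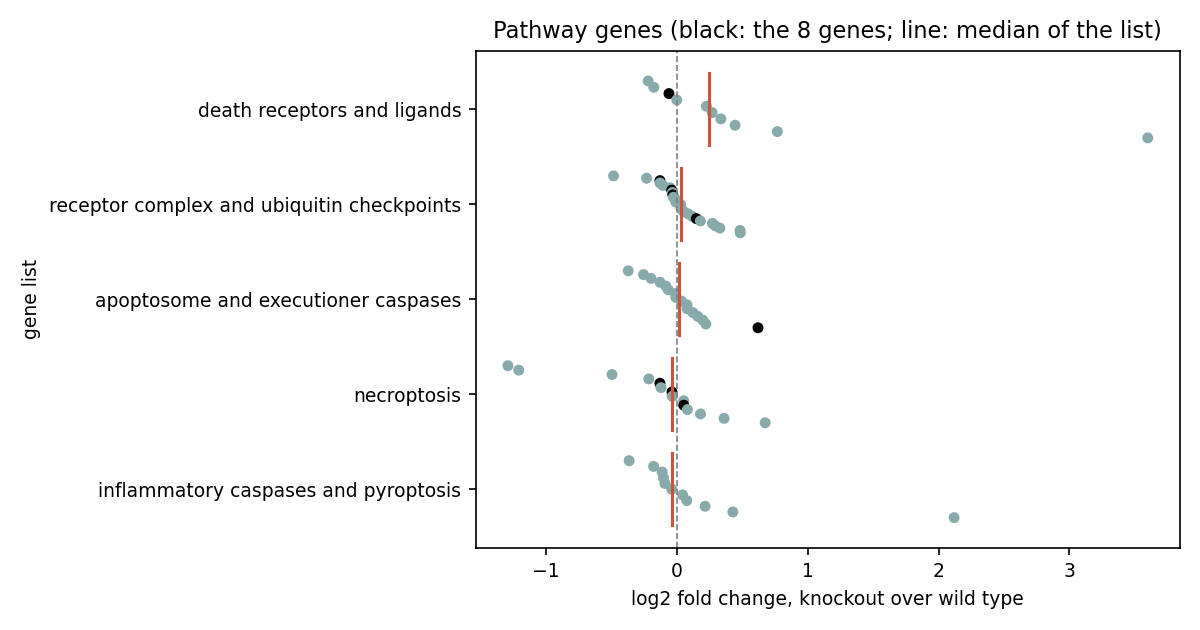
Log2 fold change, knockout over wild type (horizontal axis), of the tested genes in 5 pathway lists; the 8 genes are black, other genes grey, and the line is the median of the list. The medians run from -0.04 to 0.25, and the lowest points of the necroptosis list are Peli1 and Ripk2 at -1.21 and -1.29, neither called. The point farthest to the right is Tnfrsf21, with 7, 1 and 8 counts in wild type.

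Casp9 had the widest range of log2 CPM of the 8 genes, 1.42 units. Of 10689 genes averaging at least 50 counts, the profile nearest to it over the 6 libraries was that of Zbtb3, at a root mean square difference of 0.116 log2 units after centring. Zbtb3 measured 3.48, 4.63 and 6.31 CPM across the wild-type libraries against 9.03, 6.34 and 4.03 CPM across the knockout ones. The next was Lhpp, at 0.194. With 6 libraries and this many genes compared, the closeness is a description.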

How the data were processed

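Liver Tregs of Altre wild-type and knockout mice, 3 libraries each, were profiled by mRNA sequencing after RNA purification on micro columns and SMARTer library preparation, per the labels' protocols. The authors deposited 1 table of whole-number counts per gene, taken as raw read counts. The submitters' processing notes name STAR, cutadapt, DESeq2 and mm10, without roles. Which tool counted reads, with what annotation and whether by strand, is not given in the sources used, so reads of genes on opposite strands may not have been told apart. Other columns are, per the file headers, the authors' average normalized count (a signal over 6 libraries), log2 fold change with its standard error, Wald statistic (a score), p-value and adjusted p-value. Of 13623 rows, 18 whose gene name had become a date (0.2945% to 0.3078% of counts) were left out.

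Genotypes were compared by the quasi-likelihood test of edgeR 4.0.16 (R 4.3.3) after TMM scaling and filterByExpr, without other terms, and with Benjamini-Hochberg adjustment over 12789 genes. Standard errors are the fold change over the square root of F. Pairs of libraries within a genotype differed beyond sampling noise (43.2 to 79 chi-square units for each gene). DESeq2 1.42.0, limma-voom (limma 3.58.1), other scalings, no filter, a replicate term and leaving out each library were alternatives. On counts simulated for this comparison (12400 genes), 11.9% of genes changed 1.5-fold, 50.7% changed 2-fold and 80.3% changed 4-fold were called. Only genes averaging at least 50 counts were changed, and 7 unchanged genes were called. The libraries were drawn independently, so a likeness of same-numbered libraries was not simulated. The 8 genes and the lists were chosen with earlier results of these data known. Besides the 8, the genes named are the top 3 by unadjusted p of each of 5 lists, and the 3 nearest profiles to the member of widest range, of which 1 known by a clone name is not given. Another 2 genes that the rule names are not reported here. Positions and transcript lengths are from GENCODE M21 (GRCm38, the assembly of mm10), promoter windows from RefSeq.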

Additional observations from a re-analysis of the deposited data

How the results depend on the processing

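Over 13 alternative fits, 0 of the 8 genes was called in any, with the smallest adjusted p at 0.735 and 1 of 104 unadjusted p-values under 0.05 (edgeR, DESeq2 and limma-voom). The sign of a member's log2 fold change turned in 13 of the 104 values, each on leaving out 1 library. Without 1 library the log2 fold change ran from -0.19 to 0.10 for Fas, -0.15 to 0.063 for Fadd, -0.15 to 0.065 for Cflar, -0.31 to 0.024 for Ripk1, -0.11 to 0.10 for Ripk3 and -0.23 to 0.42 for Mlkl. It ran from 0.02 to 0.22 for Casp8 and from 0.35 to 0.88 for Casp9, with no change of sign. The knockout minus wild-type difference of the log2 ratio ran from -0.42 to 0.40 for Mlkl to Casp8, from -0.15 to 0.054 for Fas to Cflar, from -0.318 to -0.035 for Cflar to Casp8 and from -0.269 to -0.035 for Ripk3 to Casp8. The number of the 8 genes whose genotypes do not overlap ran from 0 to 1, the 1 being Casp8 without knockout replicate 1 and Casp9 without knockout replicate 3, fits in which 23.34% and 17.95% of all genes tested did not overlap. The median of the necroptosis list ran from -0.18 (without wild-type replicate 2) to -0.021. Over the whole table DESeq2 called 49 genes against 0 by edgeR and 0 by limma-voom, and leaving out 1 library gave 0 to 1 by edgeR. The cause was not tested.

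With the replicate block, edgeR called 16 genes and DESeq2 244, and 0 of the 8 by either. Deviations from the genotype mean of same-numbered libraries correlated at 0.218, 0.136 and 0.077 for numbers 1, 2 and 3 across 10690 genes, and each library correlated best with its own number, a hint from the data and not the design. The deposited statistics also lay nearest to the DESeq2 fit with this block (correlation 0.9996). The labels do not say that the numbers pair libraries, so the main edgeR fit and the ratio tests leave the block out. For genes near the 157 mean counts of Mlkl the width of the interval limits what can be seen.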

Other observations

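Inflammatory caspases and pyroptosis genes, which serve a further route of cell death, also had no called gene, where 0.0% of all genes tested were called (edgeR). Of 11 tested, 5 were higher on average in knockout and 6 lower, and the median log2 fold change was -0.04. Casp4 (mouse caspase-11), which senses cytosolic lipopolysaccharide, measured 93.0, 99.1 and 111 CPM across wild-type replicates 1 to 3, against 74.6, 93.4 and 67.5 CPM across those of the knockout. Knockout replicate 2 lay just above wild-type replicate 1, and the log2 fold change of -0.36 ± 0.16 (SE) had an unadjusted p of 0.0419 and an adjusted p of 0.848 (edgeR quasi-likelihood test, Benjamini-Hochberg). Il18, a cytokine matured by caspase-1, averaged 7.02 ± 2.50 CPM in the wild type against 9.45 ± 3.49 CPM. Il1b, which activated myeloid cells make, had 16, 0 and 0 counts in wild type and 9, 29 and 30 counts in knockout, in libraries whose summed macrophage and Kupffer cell markers were 224, 194 and 204 CPM and 236, 350.0 and 354 CPM. The part of those cells in the Il1b counts was not tested.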
